A study of Saccharomyces cerevisiae with 26 samples.

Results

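The subunit genes of the nuclear RNA polymerases I, II and III of budding yeast (Saccharomyces cerevisiae) are described here across a meiotic time course that was disturbed by the microtubule drug benomyl or by cold. The members were all genes with a probe set of their own whose symbol is RPA, RPB or RPC followed by a number, or RPO21, RPO26, RPO31 or RET1. This rule gave 31 of 5656 named genes, with 37 probe sets, and each gene was read from the probe set with the highest mean over all arrays. By enzyme, 7 genes belong to Pol I alone, 7 to Pol II alone and 10 to Pol III alone, 2 are shared by Pol I and Pol III, and 5 are common to the 3 enzymes. The rule used names and no difference between groups, but the genes were proposed with earlier results of these arrays known.

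Total RNA of 13 groups was hybridised to 26 Affymetrix YG_S98 arrays, 2 for each group, in 2 sets. The first set of 16 arrays held cells in sporulation medium with benomyl, from a stock in dimethyl sulfoxide (DMSO), at a stated 0.4% for 1 h or 4 h, cells with the solvent DMSO at 0.4% for 1 h or 4 h, cells 1 h after filtration into medium without either agent, cells after 4 h of sporulation before filtration, cells in acetate medium (YPA) and cells in glucose medium (YPD). Benomyl binds tubulin and depolymerises microtubules. The second set of 10 arrays held cells moved to medium at 10 °C for 1 h or 4 h, filtered cells without the cold shift at 1 h or 4 h, and cells after 4 h of sporulation. Benomyl, DMSO, cold and filtration all began 4 h after sporulation was induced, by filtering the cells and resuspending them in fresh medium. The cold medium also contained DMSO, while the filtered controls of that set are not described as having any, so cold and solvent cannot be told apart in those comparisons. The strain is not named in the labels, and nothing says that the arrays of a group came from separate cultures, so p-values measure only the spread between arrays, which may be technical.

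RNA polymerase I makes the large ribosomal RNA precursor, RNA polymerase II makes messenger RNAs, and RNA polymerase III makes transfer RNAs and the smallest ribosomal RNA. Each has a catalytic core of a pair of very large subunits, an assembly platform, a stalk and further peripheral subunits, and a small group of subunits is built into every one of the enzymes. In growing yeast the demand for ribosomes sets much of the work of Pol I and Pol III, and genes for ribosome production are lowered in starvation and stress.

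Values are log2 signals after quantile normalization, and a gene was called where limma's adjusted p (Benjamini-Hochberg over all 7876 probe sets tested) was under 0.05. The level of one gene cannot be set against that of another on this scale, so levels are compared between groups within a gene. The 31 chosen probe sets all passed the filter on dim signals, but 5 genes had group means under its limit of 5.44. RPC82 was above it in 2 of 13 groups, RPC25 in 3, RPC17 in 7, and RPC34 and RPA12 in 12 each. The arrays hold signals of whole cultures, in which fewer cells with a transcript and less of it per cell cannot be told apart. The 2 arrays of a group correlated at 0.963 to 0.995 over all probe sets, except the benomyl 1 h pair at 0.942. A list of 8 meiosis genes (IME1, IME2, SPO11, REC8, HOP1, ZIP1, DMC1 and MEI4) was read beside the subunits. It was chosen with earlier results of these arrays known, so it is no independent check of the labels. After 4 h of sporulation 8 of 8 were higher than in acetate medium, by 1.42 to 4.87 on the log2 scale. Of all probe sets tested, 28.5% were called higher there.

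The 3 enzymes did not follow one course over the 13 groups. As a description, each class was summarised by the mean distance of its genes from their own average over all 26 arrays. For the 7 Pol I genes this mean was 1.02 in cold at 4 h and 0.81 in cold at 1 h, the highest groups, and -0.51 in DMSO at 4 h and -0.94 in benomyl at 1 h, the lowest. Its range over the groups was 1.96, against an SD between arrays of 0.13.

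For the 7 Pol II genes the range was 0.71 with an SD of 0.10, and the order was another one. Acetate medium was highest at 0.42, followed by cold at 4 h and cold at 1 h, both at 0.26, while DMSO at 1 h (-0.23) and benomyl at 4 h (-0.29) were lowest. The 10 Pol III genes spanned 0.85 with an SD of 0.08. Their mean was 0.46 in both cold groups and -0.38 in both DMSO at 4 h and benomyl at 1 h, so each of these pairs of neighbours differed by less than the SD. The 2 genes shared by Pol I and Pol III had the widest range of the 5 classes, 2.50, with 1.15 in cold at 4 h and -1.35 in benomyl at 1 h. The 5 common genes spanned 1.68 and were highest in acetate medium (0.77), cold at 4 h (0.75) and YPD (0.73), and lowest in benomyl at 1 h (-0.91).

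**Figure D1:**
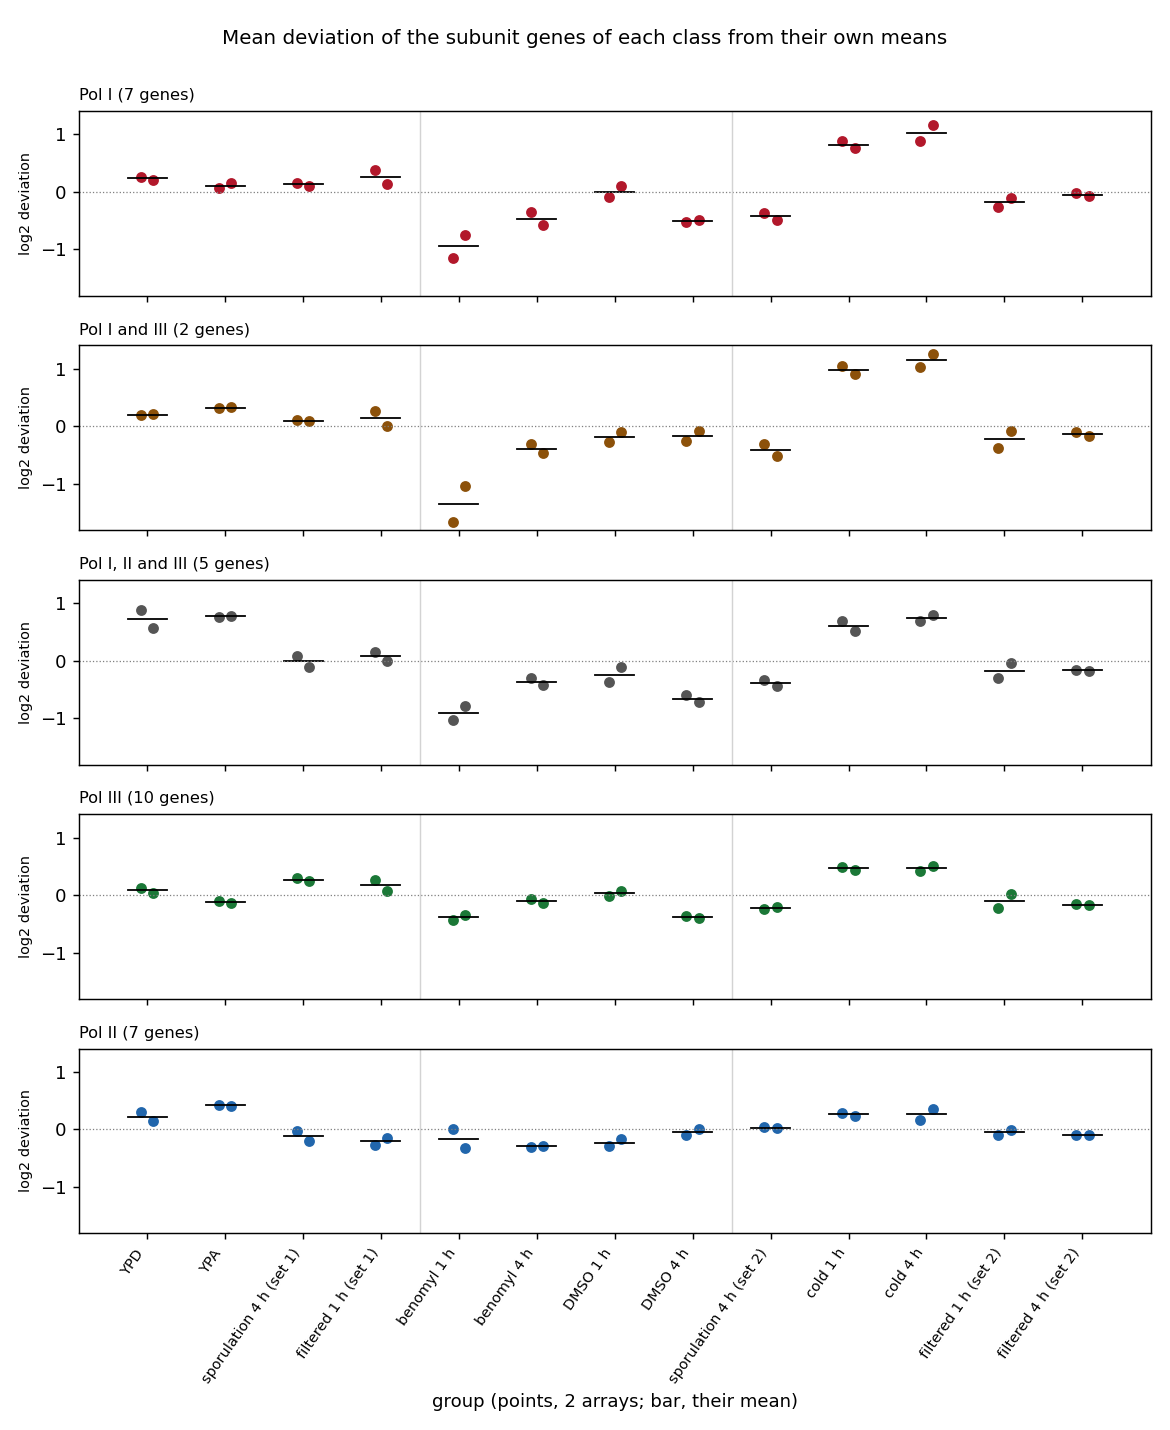
Mean log2 distance of each class of subunit genes from the genes' own average over 26 arrays, by group, with 1 panel per class, points for arrays and bars for the mean of 2 arrays. The Pol I panel reaches 1.02 in cold at 4 h and -0.94 in benomyl at 1 h, while the Pol II panel spans 0.71.

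Single genes ranged widely within their classes. The largest distance between the highest and lowest group mean was 2.80 for RPA34, followed by 2.77 for RPC53, 2.66 for RPO26, 2.64 for RPC40 and 2.49 for RPA135. The smallest were 0.90 for RPC31 and 0.99 for RPC34. Of the 7 Pol I genes, 6 were highest in cold at 4 h and RPA12 was highest in cold at 1 h. The Pol II genes had no common peak: RPO21 was highest in cold at 4 h, RPB2 and RPB3 in acetate medium, RPB4, RPB7 and RPB9 in YPD, and RPB11 after 4 h of sporulation in the second set.

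**Figure D2:**
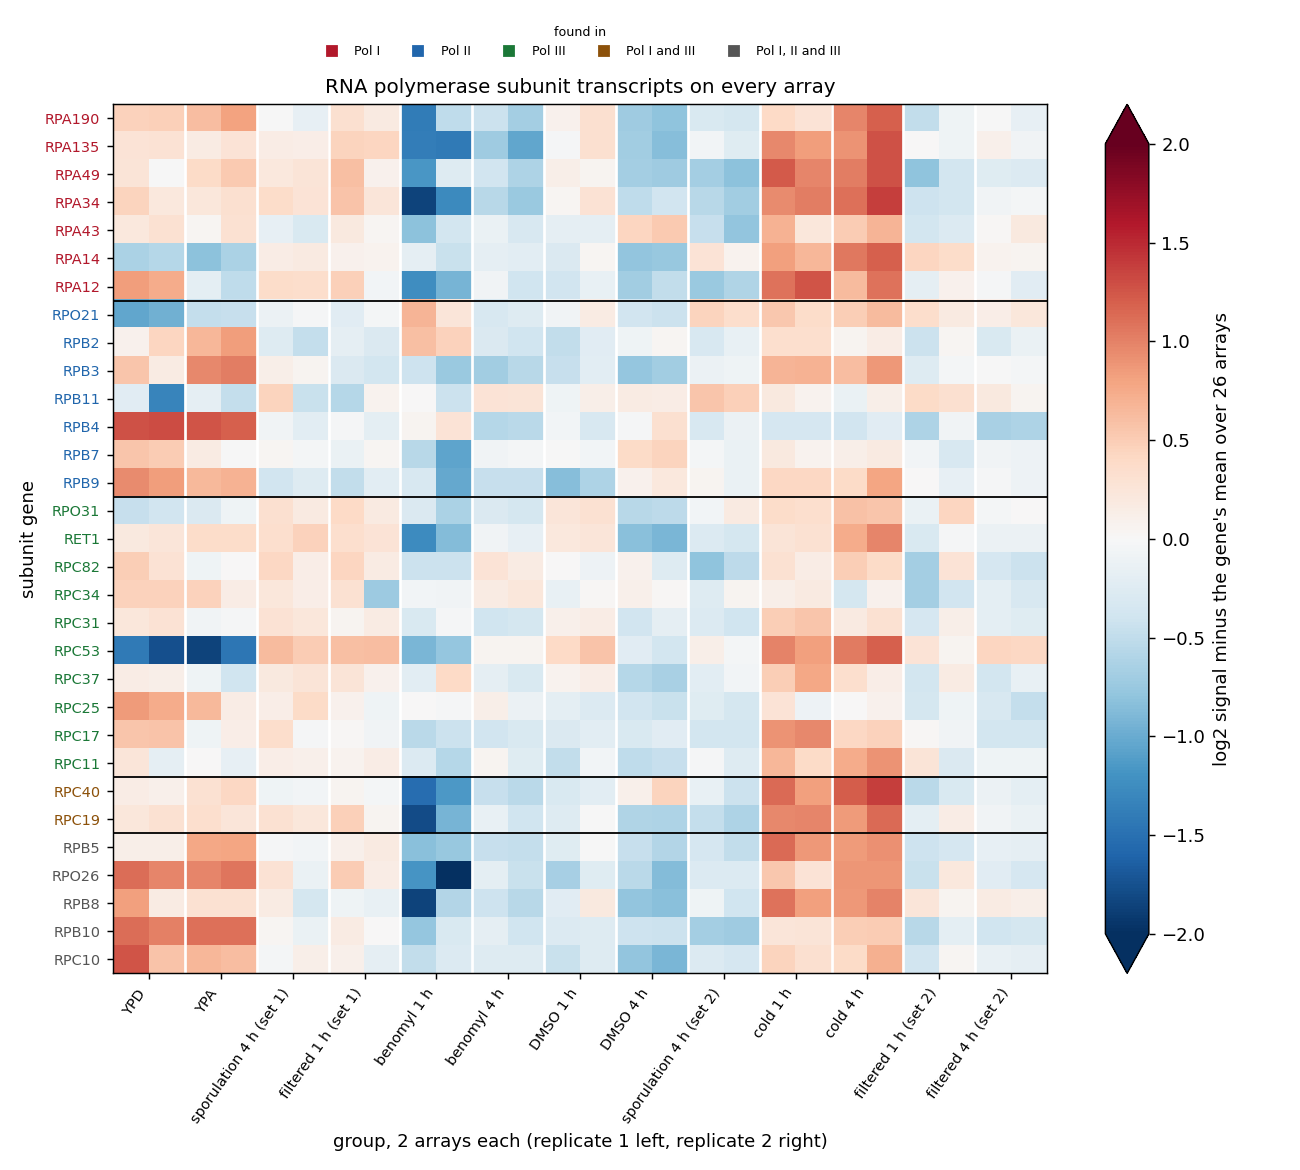
Log2 signal of each of the 31 subunit genes on each of 26 arrays, minus the gene's mean over all arrays, with genes down the side by enzyme and arrays across by group, and colour limited at 2 either way. The Pol I, shared and common genes are high in both cold groups and low on the benomyl 1 h arrays, and the Pol II genes differ from each other.

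The first steps of the course compare acetate medium, in which cells respire, with glucose medium, in which they ferment. RPA12, the Pol I subunit for RNA cleavage, had signals of 5.93 and 5.62 in YPA, against 6.97 and 6.87 in YPD. RPB5, a subunit common to the enzymes, had 7.97 and 7.98 in YPA, against 7.31 and 7.31 in YPD. The first was lower and the second higher in YPA on both arrays, with no overlap. Of all probe sets tested, 69.3% did not overlap between these groups. The log2 fold changes were -1.15 ± 0.19 (SE, n = 2 each; limma adjusted p 0.000222) for RPA12 and 0.66 ± 0.11 (0.000254) for RPB5.

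In all, 4 of 31 subunit genes were higher in YPA (12.9%, against 15.7% of all probe sets tested) and 3 were lower (9.68%, against 17.7%), so neither share was above its background. The other genes called higher were the Pol II genes RPB3 (0.64), RPO21 (0.53) and RPB2 (0.49). The other genes called lower were RPC17 (-0.54), of the Pol III stalk, and RPB7 (-0.45), of the Pol II stalk. As deposited, without quantile normalization, the same comparison called 4 higher and 5 lower. The YPD arrays share a scan day that holds no YPA array, so medium and day cannot be told apart.

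Between acetate medium and 4 h of sporulation subunit genes moved both ways. RPC53, a Pol III subunit that takes part in termination and reinitiation, had 8.39 and 8.26 after 4 h of sporulation, against 5.90 and 6.30 in YPA. It was low in both growth media (6.33 and 6.0 in YPD) and higher in each of the 11 groups of sporulating cells. Its log2 fold change, 2.23 ± 0.15 (SE, n = 2 each; limma adjusted p 5.66e-10), had the smallest p of the 31 genes. RPA14, of the Pol I stalk, had 9.52 and 9.55 after 4 h of sporulation, against 8.54 and 8.74 in YPA, a difference of 0.90 ± 0.13 (9.5e-06). Its stalk partner RPA43 had 5.93 and 5.79 after 4 h of sporulation, against 6.13 and 6.39 in YPA, and did not pass the test (-0.40, adjusted p 0.0514).

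Of the 10 genes that fell, 4 were of Pol II and 4 were common to the enzymes, and the difference between classes was not tested. RPB4, of the Pol II stalk, had 7.11 and 6.97 after 4 h of sporulation, against 8.43 and 8.37 in YPA (-1.36 ± 0.16, limma adjusted p 9.58e-07). RPB2, the second largest Pol II subunit and part of its active centre, had 8.89 and 8.67 after 4 h of sporulation, against 9.80 and 9.99 in YPA (-1.12 ± 0.16, 8.84e-06). Both were lower on each sporulation array than on either YPA array, and 83.6% of all probe sets tested did not overlap between these groups. RPB10, a small common subunit, had 8.55 and 8.38 after 4 h of sporulation, against 9.61 and 9.60 in YPA (-1.14 ± 0.14, 1.99e-06). RPB9 (-0.99), RPB3 (-0.91), RPO26 (-0.94), RPB5 (-0.82), RPC10 (-0.60) and the shared gene RPC40 (-0.44) also fell.

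Of the 31 genes, 10 fell (32.3%, against 29.5% of all probe sets tested) and 6 rose (19.4%, against 28.5%). By enzyme, 4 of 7 Pol II genes fell and 1 rose, with a median of -0.91, and 4 of 5 common genes fell, with a median of -0.82. Of the 10 Pol III genes 3 rose (RPC53, RPC37 by 0.47 and the largest subunit RPO31 by 0.45), with a class median of 0.25, a share close to that of all probe sets. The calls of RPC37 and RPO31 were lost in 5 and 2 settings, and 8 of the 16 calls held under every setting. The Pol I class had a median of -0.07, which was 0.11 in the values as deposited, with RPA14 and RPA12 (0.71 ± 0.19) higher and RPA190, its largest subunit, lower. The median over all probe sets was -0.04, 0.06 as deposited and -0.15 with each array centred on its median, and the split of calls was 7 higher and 8 lower as deposited and 4 higher and 12 lower with median centring.

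With scan day as a term RPC37 (limma adjusted p 0.0543) and RPO21 (0.0512) did not pass the test. Within scan days the Pol II median was -0.84 on day 1 and -0.95 on day 2, and the Pol III median was 0.32 and 0.24. RPO21, the largest Pol II subunit, was called higher by 0.40, but its difference was -0.08 as deposited and -0.29 with median centring, so its direction rests on the scaling. RPA190 had 8.47 and 8.31 after 4 h of sporulation, against 9.09 and 9.28 in YPA (-0.79 ± 0.20, limma adjusted p 0.00287). Its other tested probe sets gave -0.23 to 0.49, and that at 0.49 was itself called higher (limma adjusted p 0.0457). The call of RPA190 as lower was lost with the mean of its probe sets.

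Filtration and the solvent came next. Filtered cells of the first set at 1 h, compared with cells after 4 h of sporulation, gave 0 calls among the 31 genes in limma (3.09% of all probe sets, 1 subunit gene at an unadjusted p under 0.05). The same comparison in the second set gave 0 (2.37% of all, 4 unadjusted). DMSO at 1 h compared with filtered cells gave 0 (0.571% of all, 5 unadjusted), with a median difference of -0.23 over the subunit genes. In the second set, filtered cells at 4 h compared with 1 h gave 0 (8.1% of all, 3 unadjusted).

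The DMSO cultures changed between 1 h and 4 h. The first set held no filtered cells at 4 h, so longer DMSO exposure and progress of sporulation cannot be told apart here. RET1, the second largest Pol III subunit, had 8.88 and 8.80 in DMSO at 4 h, against 9.92 and 9.96 at 1 h. RPA135, the second largest Pol I subunit, had 7.43 and 7.28 at 4 h, against 8.12 and 8.46 at 1 h. RPO31, the largest Pol III subunit, had 7.51 and 7.54 at 4 h, against 8.31 and 8.37 at 1 h. These genes of the catalytic cores were lower on both 4 h arrays than on either 1 h array. Between these groups 79.6% of all probe sets tested did not overlap. The differences were -1.10 ± 0.13 (limma adjusted p 1.45e-06) for RET1, -0.93 ± 0.15 (4.66e-05) for RPA135 and -0.82 ± 0.16 (0.000403) for RPO31.

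Of the 31 genes, 15 were lower at 4 h (48.4%, against 25.8% of all probe sets tested) and 4 were higher (12.9%, against 17.8%). The median was -0.40, against -0.15 over all probe sets, a shift of the whole table that was -0.04 in the values as deposited, where the split was 6 higher and 10 lower. In Pol I 5 of 7 genes fell, with a median of -0.65, and in Pol III 5 of 10 fell, with a median of -0.31. Pol II had 2 genes lower and 2 higher, with a median of 0.33. The 4 genes that rose were RPB9 (0.89 ± 0.18), RPA43 (0.65 ± 0.17), RPC40 (0.53 ± 0.15), of the assembly platform of Pol I and Pol III, and RPB7 (0.45 ± 0.14). With scan day as a term RPB8 (-0.80) did not pass the test (limma adjusted p 0.0761), and without replicate 2 of DMSO at 4 h the count fell to 11. DMSO at 4 h is also the control of the benomyl comparison at 4 h.

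In benomyl at 1 h most Pol I genes and both genes shared with Pol III fell. The catalytic pair of Pol II was called higher, though a fit to these groups alone called lower genes only. RPA34, which forms a pair with RPA49 on the side of Pol I, had 6.33 and 6.89 in benomyl, against 8.22 and 8.47 in DMSO at 1 h. RPA135 had 6.75 and 6.71 in benomyl, against 8.12 and 8.46 in DMSO. RPC40 had 5.62 and 6.0 in benomyl, against 6.85 and 6.94 in DMSO. In each of these genes both benomyl arrays were below both DMSO arrays. Of all probe sets tested, 71.2% did not overlap between these groups in either direction.

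The log2 fold changes were -1.73 ± 0.17 for RPA34 (SE, n = 2 each; limma adjusted p 9.73e-08), -1.56 ± 0.15 for RPA135 (6.59e-08) and -1.08 ± 0.15 for RPC40 (1.12e-05). RPC19, the partner of RPC40, had 6.97 and 7.83 in benomyl, against 8.51 and 8.76 in DMSO (-1.23 ± 0.21, 7.67e-05). RPA190 had 7.08 and 7.96 in benomyl, against 8.55 and 8.79 in DMSO (-1.16 ± 0.20, 0.000124), and its 6 tested probe sets were all called lower, by -0.48 to -1.52. RPA12 (-0.82) and RPA49 (-0.79) fell as well. The stalk genes RPA43 (-0.41, 0.0518) and RPA14 (-0.18, 0.234) did not pass the test.

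In Pol III, RPC53 had 6.84 and 6.98 in benomyl, against 8.14 and 8.32 in DMSO (-1.32 ± 0.15, limma adjusted p 5.78e-07). RET1 had 8.46 and 8.85 in benomyl, against 9.92 and 9.96 in DMSO (-1.29 ± 0.13, 1.49e-07), and RPO31 fell by 0.74. The other 7 Pol III genes, among them the initiation trimer of RPC82, RPC34 and RPC31 and the stalk pair of RPC25 and RPC17, did not pass the test. Of these, RPC82, RPC25 and RPC17 averaged under the filter limit of 5.44 in both groups, and the part of dim signals in this was not tested. Of the common subunits, RPB8 (-1.21 ± 0.29), RPO26 (-1.15 ± 0.25) and RPB5 (-0.68 ± 0.11) fell. RPB8 was uneven, with 7.45 and 8.72 in benomyl, against 9.08 and 9.49 in DMSO.

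Pol II differed in sign between its genes. RPB2 had 9.75 and 9.61 in benomyl, against 8.65 and 8.92 in DMSO, and rose by 0.89 ± 0.16 (limma adjusted p 0.00013). RPO21 had 12.43 and 11.99 in benomyl, against 11.68 and 11.91 in DMSO (0.42 ± 0.13, 0.0132), a call lost when single arrays were left out. RPB7, whose protein sits in the Pol II stalk with Rpb4, had 7.75 and 7.24 in benomyl, against 8.29 and 8.25 in DMSO (-0.77 ± 0.14, 0.000169), while RPB4 was 0.35 higher and did not pass the test (0.076).

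In benomyl at 1 h, 14 of 31 genes were lower (45.2%, against 26.8% of all probe sets tested) and 2 were higher (6.45%, against 25.6%). The median was -0.39, against 0.01 over all probe sets. By class, 5 of 7 Pol I genes fell (median -0.82), both genes of Pol I and Pol III fell (-1.15), 3 of 5 common genes fell (-0.68), 3 of 10 Pol III genes fell (-0.26), and Pol II had 1 lower and 2 higher (0.06, or -0.01 as deposited). Within scan days the Pol I median was -1.28 on day 1 and -0.78 on day 2, the Pol III median -0.35 and -0.28, and the Pol II median 0.11 and -0.42, so the Pol II class turned sign between days. With scan day as a term RPC82 (-0.39) was called as well (limma adjusted p 0.0263). A fit to the groups of this contrast alone called 6 genes, all lower, and 5 of the 16 calls held under every setting tried: RPA135, RPA34, RET1, RPC53 and RPC40.

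Other measures moved with these samples. The benomyl 1 h arrays were the least alike of any pair, and the actin probe sets for the 3′ and 5′ ends differed by -1.05 and -0.91 on them, against -1.59 and -1.45 in DMSO at 1 h. The 8 meiosis genes were lower in benomyl at 1 h, 8 of 8 (against 26.8% of all probe sets tested), by -2.89 to -1.01. Their part in the result was not tested.

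**Figure D3:**
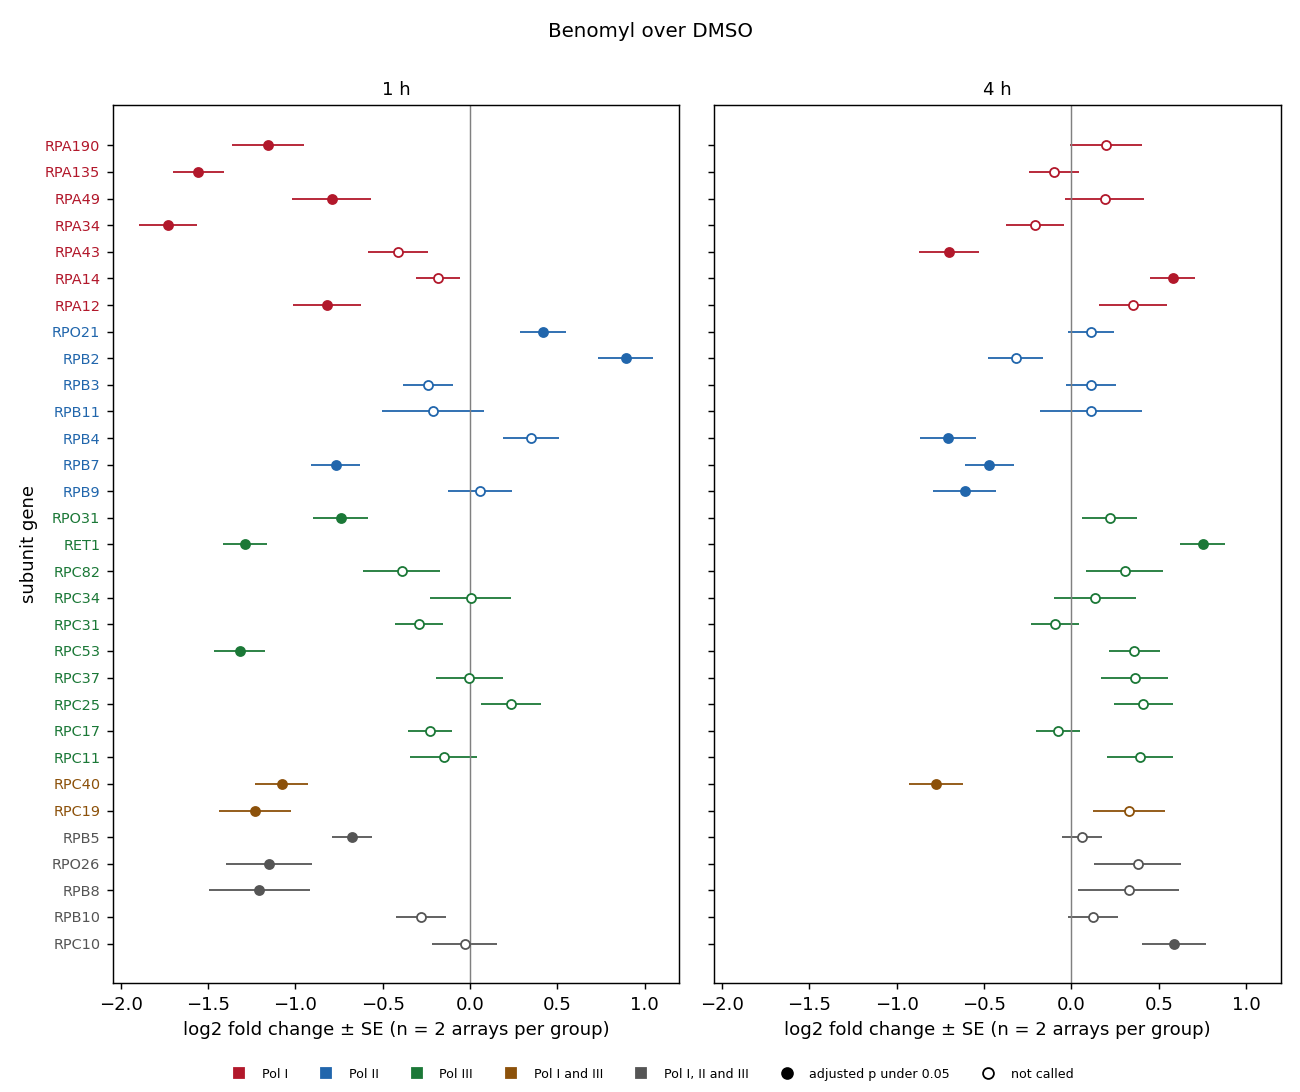
Log2 fold change of benomyl over DMSO for the 31 subunit genes at 1 h (left) and 4 h (right), with SE and n = 2 arrays per group, coloured by enzyme and filled where limma's adjusted p was under 0.05. At 1 h RPA34 (-1.73) is lowest and RPB2 (0.89) highest, and at 4 h 8 genes are filled.

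At 4 h of benomyl none of the 5 Pol I genes called lower at 1 h was called. RPA135 had 7.42 and 7.09 in benomyl at 4 h, against 7.43 and 7.28 in DMSO at 4 h, and RPA34 had 7.62 and 7.43 in benomyl, against 7.67 and 7.80 in DMSO. The groups overlapped in RPA135, and neither gene passed the test. RET1 had turned to the other side, with 9.64 and 9.54 in benomyl, against 8.88 and 8.80 in DMSO (0.75 ± 0.13, limma adjusted p 0.000168).

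RPA14 (0.58 ± 0.13) and RPC10 (0.59 ± 0.18) were higher as well. RPC40 had 6.69 and 6.62 in benomyl, against 7.26 and 7.59 in DMSO (-0.77 ± 0.15, 0.000691), and RPA43 had 5.95 and 5.77 in benomyl, against 6.52 and 6.61 in DMSO (-0.70 ± 0.17, 0.00388). The Pol II genes RPB4 (-0.71 ± 0.16), RPB9 (-0.61 ± 0.18) and RPB7 (-0.47 ± 0.14) were lower.

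The counts were 3 higher (9.68%, against 16.6% of all probe sets tested) and 5 lower (16.1%, against 15.9%). A fit to the groups of this contrast alone called 17 genes, 11 higher and 6 lower, and array weights gave 15, 9 higher and 6 lower. The class medians were 0.19 in Pol I, -0.32 in Pol II and 0.33 in Pol III. Of the 8 calls, RPA43, RPA14, RET1 and RPC40 held under every setting. With scan day as a term RPB7 did not pass the test (adjusted p 0.0503), and leaving out replicate 2 of DMSO at 4 h lowered the count to 4. As deposited the split was 2 higher and 6 lower.

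Benomyl at 4 h compared with benomyl at 1 h gives the course in the drug itself. RPA34 had 7.62 and 7.43 at 4 h, against 6.33 and 6.89 at 1 h, and RPC53 had 7.81 and 7.81 at 4 h, against 6.84 and 6.98 at 1 h. Both were higher on each 4 h array, and 71.7% of all probe sets tested did not overlap between these groups. Of the 31 genes, 12 rose (38.7%, against 25.5% of all probe sets tested) and 3 fell (9.68%, against 24%), the last being RPB2 (-0.87), RPO21 (-0.75) and RPB4 (-0.72). RPO26 (1.28 ± 0.25), RPC19 (1.08 ± 0.21) and RET1 (0.94 ± 0.13) had the largest rises, and their calls were lost in a fit to these groups alone, which called 4 genes. The calls of RPC53, RPC40 and RPB2 held under every setting. RPC82 averaged 5.29 at 4 h, against 4.65 at 1 h, both under the filter limit, and its call (0.64) was lost in 5 settings, and RPB8 (0.74) did not pass the test with scan day as a term (limma adjusted p 0.0859). The 8 meiosis genes rose too, 8 of 8.

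The difference of the benomyl effects, 4 h minus 1 h, was tested as one contrast. It was higher for 13 genes (41.9%, against 24.2% of all probe sets tested) and lower for 3 (9.68%, against 21.5%). By class, 6 of 7 Pol I genes were higher, with a median of 1.17, 3 of 10 Pol III genes, with a median of 0.46, and 3 of 5 common genes, with a median of 0.74. The 3 lower genes were all of Pol II. RET1 (2.04 ± 0.18, limma adjusted p 1.02e-07) and RPC53 (1.68 ± 0.21, 3.83e-06) led. Both time points use their own DMSO control, and the fall of RET1, RPO31, RPC53 and 5 Pol I genes in DMSO between 1 h and 4 h is part of this difference.

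In cold at 1 h subunit genes of every class rose. RPB5 had 8.34 and 8.06 in cold at 1 h, against 6.79 and 6.86 in filtered cells of the same set. RPC40 had 8.29 and 7.98 in cold, against 6.61 and 6.85 in filtered cells. RPA49 had 8.65 and 8.41 in cold, against 6.63 and 7.06 in filtered cells. The lowest cold array stood above the highest filtered array by more than 1 unit in each of these genes. Of all probe sets tested, 54.8% did not overlap between these groups, by any distance.

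The log2 fold changes were 1.37 ± 0.11 for RPB5 (SE, n = 2 each; limma adjusted p 4.39e-07), 1.40 ± 0.15 for RPC40 (4.44e-06) and 1.69 ± 0.23 for RPA49 (3.31e-05). RPA34 had 9.11 and 9.20 in cold, against 7.77 and 7.81 in filtered cells (1.37 ± 0.17, 1.27e-05). RPA12 (1.22), RPC19 (1.00), RPC17 (0.95) and RPA135 (0.94) followed. In Pol II, RPB3, of the assembly platform, had 8.50 and 8.51 in cold, against 7.56 and 7.78 in filtered cells (0.83 ± 0.14, 0.000426), and RPB2 rose by 0.53.

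At 1 h of cold 19 of 31 genes were higher (61.3%, against 11.7% of all probe sets tested) and 0 lower in limma (8.35% of all; 24 higher and 0 lower at an unadjusted p under 0.05). The median was 0.63. By class, 6 of 7 Pol I genes rose (median 0.94), 6 of 10 Pol III genes (0.59), 2 of 7 Pol II genes (0.32), both genes of Pol I and Pol III (1.20) and 3 of 5 common genes (0.63). The control arrays of this comparison were less alike than most pairs (0.963), and without replicate 1 of the filtered cells 12 genes were called, without replicate 2, 22. On replicate 1 of the filtered cells the SPT15 probe sets for the 3′ and 5′ ends differed by 5.64, against 4.45 on replicate 2. For actin the values were -1.54 and -1.30. The part of these differences in the counts was not tested. A fit to the groups of this contrast alone called 11 genes. The 10 calls that held under every setting were RPA135, RPA49, RPA34, RPA12, RPB3, RPC53, RPC17, RPC40, RPC19 and RPB5.

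After 4 h of cold more genes had passed the test. RPC40 had 8.37 and 8.53 in cold at 4 h, against 7.04 and 6.95 in filtered cells at 4 h (1.46 ± 0.15, limma adjusted p 6.3e-07). RPA14 had 10.43 and 10.56 in cold, against 9.43 and 9.42 in filtered cells (1.07 ± 0.13, 2.93e-06). RPA190 had 9.44 and 9.67 in cold, against 8.46 and 8.30 in filtered cells (1.18 ± 0.20, 0.000182), and its 6 tested probe sets were all called, at 1.03 to 1.31. In Pol III, RET1 had 10.46 and 10.68 in cold, against 9.59 and 9.59 in filtered cells (0.98 ± 0.13, 8.77e-06). The cold arrays were above the filtered ones in each of these genes, with no overlap, and 76.3% of all probe sets tested did not overlap either.

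The common subunits all rose. RPO26 had 8.10 and 8.10 in cold at 4 h, against 6.99 and 6.89 in filtered cells (1.16 ± 0.25, limma adjusted p 0.00118), and RPB5 had 8.04 and 8.12 in cold, against 7.04 and 7.02 in filtered cells (1.05 ± 0.11, 9.48e-07). RPB10 had 9.0 and 9.02 in cold, against 8.11 and 8.15 in filtered cells, a rise of 0.88. RPB8 (0.79) and RPC10 (0.72) completed the group. In Pol II, RPB3 (0.77), RPB9 (0.65) and RPO21 (0.38) rose, while RPB2 (0.31), RPB4 (0.33), RPB7 (0.23) and RPB11 (-0.13) did not pass the test. RPB11, the partner of RPB3, was called in no comparison. Its SD between replicates was 0.329, close to the 0.325 of RPB8, which was called in several.

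In cold at 4 h 25 of 31 genes were higher (80.6%, against 19.4% of all probe sets tested) and 0 lower in limma (16.8% of all; 26 higher and 0 lower at an unadjusted p under 0.05). The median was 0.79. The counts were 7 of 7 in Pol I (median 1.07), 8 of 10 in Pol III (0.64), 3 of 7 in Pol II (0.33), both genes of Pol I and Pol III (1.27) and 5 of 5 common genes (0.88). Among the Pol III genes counted, RPC82 averaged 5.52 in cold, against 4.70 in filtered cells, which is under the filter limit, and RPC25 averaged 5.40 in cold, against 4.95 in filtered cells, both under it, and its call (0.44) was lost in 5 settings. RPC11, the Pol III subunit for RNA cleavage, had 8.23 and 8.39 in cold, against 7.40 and 7.39 in filtered cells (0.91 ± 0.19, limma adjusted p 0.00099). The split was 22 higher and 0 lower as deposited and 26 and 0 with median centring, and 18 of the calls held under every setting. The meiosis genes ran the other way: 7 of 8 were lower in cold at 4 h, by up to -1.59 (16.8% of all probe sets tested). At 1 h 3 of 8 were lower (8.35% of all). Their part in the rise of the subunit genes was not tested.

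**Figure D4:**
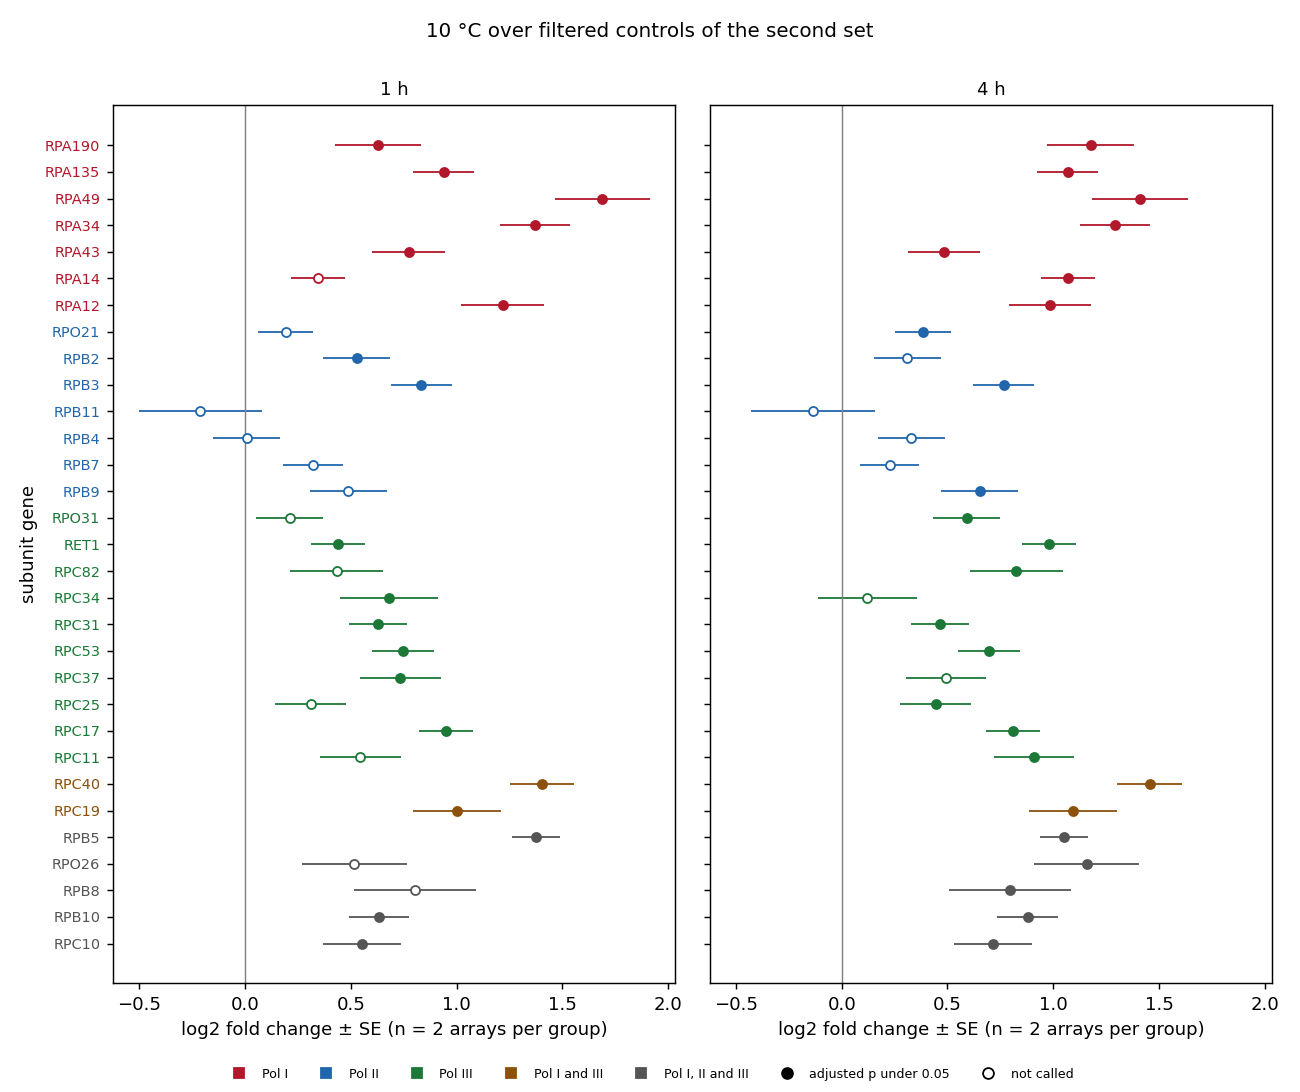
Log2 fold change of cold over filtered cells of the second set for the 31 subunit genes at 1 h (left) and 4 h (right), with SE and n = 2 arrays per group, coloured by enzyme and filled where limma's adjusted p was under 0.05. At 4 h 25 genes are filled, all to the right of 0. The open ones are RPB2, RPB4, RPB7 and RPB11 of Pol II and 2 Pol III genes, among them RPC34 (0.12).

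Cold at 4 h compared with cold at 1 h moved few members. RPA190 (0.74, limma adjusted p 0.0406) and RET1 (0.58, 0.0117) were higher (2.43% of all probe sets tested were called higher) and RPC17 (-0.48, 0.0331) was lower (2.74%). None of the 3 calls held under every setting, and leaving out single arrays left 0 to 1. The difference of the cold effects, 4 h minus 1 h, was called for RPA14 (0.73 ± 0.18, 0.0156; 7.83% of all probe sets were called in either direction), and for 0 genes as deposited.

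The benomyl and cold effects were then subtracted, each with its own set's control. At 1 h 23 of 31 genes were lower in benomyl minus cold (74.2%, against 21.8% of all probe sets tested) and 0 were higher in limma (20.4% of all; 24 lower and 0 higher at an unadjusted p under 0.05). RPA34 (-3.10 ± 0.24, limma adjusted p 1.65e-08), RPB5 (-2.05 ± 0.16, 2.22e-08) and RPA135 (-2.49 ± 0.21, 3.54e-08) had the smallest p. The 7 Pol I genes were all called, with a median of -2.03, as were both genes of Pol I and Pol III (-2.36), 4 of 5 common genes (-1.67) and 8 of 10 Pol III genes (-0.87). Of the 7 Pol II genes 2 were called, with a median of -0.00334.

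At 4 h 15 genes were lower (48.4%, against 13.4% of all probe sets tested) and 0 higher in limma (13.4% of all; 19 lower and 0 higher at an unadjusted p under 0.05). RPC40 (-2.23 ± 0.22, limma adjusted p 1.34e-06), RPA34 (-1.50), RPB9 (-1.26), RPA49 (-1.22) and RPA43 (-1.19) were among them. Pol I had 5 of 7 called (median -1.17), Pol II 5 of 7 (-0.65) and Pol III 2 of 10 (-0.35). The treatments came from different sets with different controls, and the sets themselves differed: filtered cells at 1 h in the second set, compared with the first, had 8 of 31 genes lower (25.8%, against 11.7% of all probe sets tested) and 1 higher (3.23%, against 10.8%). RPA49 (-0.93), RPA34 (-0.79) and RPB5 (-0.52) led the lower genes and RPO21 (0.40) was higher. These calls numbered 1 to 13 when single arrays were left out and 0 in a fit to those groups alone.

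Subunits that sit together in an enzyme did not always share a course. As a description over 13 group means, which share controls and the sets, the Pearson correlation was 0.92 for RPA49 and RPA34, 0.90 for RPA190 and RPA135, 0.87 for RPC40 and RPC19, and 0.73 for RPO31 and RET1. It was lower for the stalk pairs: 0.60 for RPC25 and RPC17, 0.35 for RPB4 and RPB7 and 0.14 for RPA43 and RPA14. RPC25 was above the filter limit in 3 of 13 groups and RPC17 in 7, so their value rests largely on dim signals. RPO21 and RPB2, the catalytic pair of Pol II, stood at -0.09, RPB3 and RPB11 at -0.32, and RPC53 and RPC37 at 0.39. The most alike pair was RPA34 and RPC19 (0.97) and the least alike RPB4 and RPC53 (-0.86).

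By class, the median over pairs was 0.71 among Pol I genes (21 pairs, 0.14 to 0.95), 0.83 among common genes (10 pairs), 0.52 among Pol III genes (45 pairs) and 0.02 among Pol II genes (21 pairs, -0.78 to 0.76). Pol I genes paired with the 2 shared genes gave 0.84 (14 pairs), and Pol I with Pol II genes 0.24 (49 pairs). RPA190 and RPA43, which are neighbours on chromosome XV, correlated at 0.60.

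The genes that left the course of their partners were chosen after their values were seen. RPA14 had its highest values in cold (10.43 and 10.56 at 4 h) and its lowest in DMSO at 4 h (8.57 and 8.60) and YPA (8.54 and 8.74), while RPA43 had 6.52 and 6.61 in DMSO at 4 h, above its 5.91 and 5.91 in DMSO at 1 h. RPB4 was high in the growth media (8.43 and 8.37 in YPA, 8.45 and 8.49 in YPD) and between 6.53 and 7.49 on the 22 arrays of the sporulating groups. RPB7 was lowest in benomyl at 1 h (7.75 and 7.24). RPB2 was highest in YPA (9.80 and 9.99) and in benomyl at 1 h (9.75 and 9.61).

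**Figure D5:**
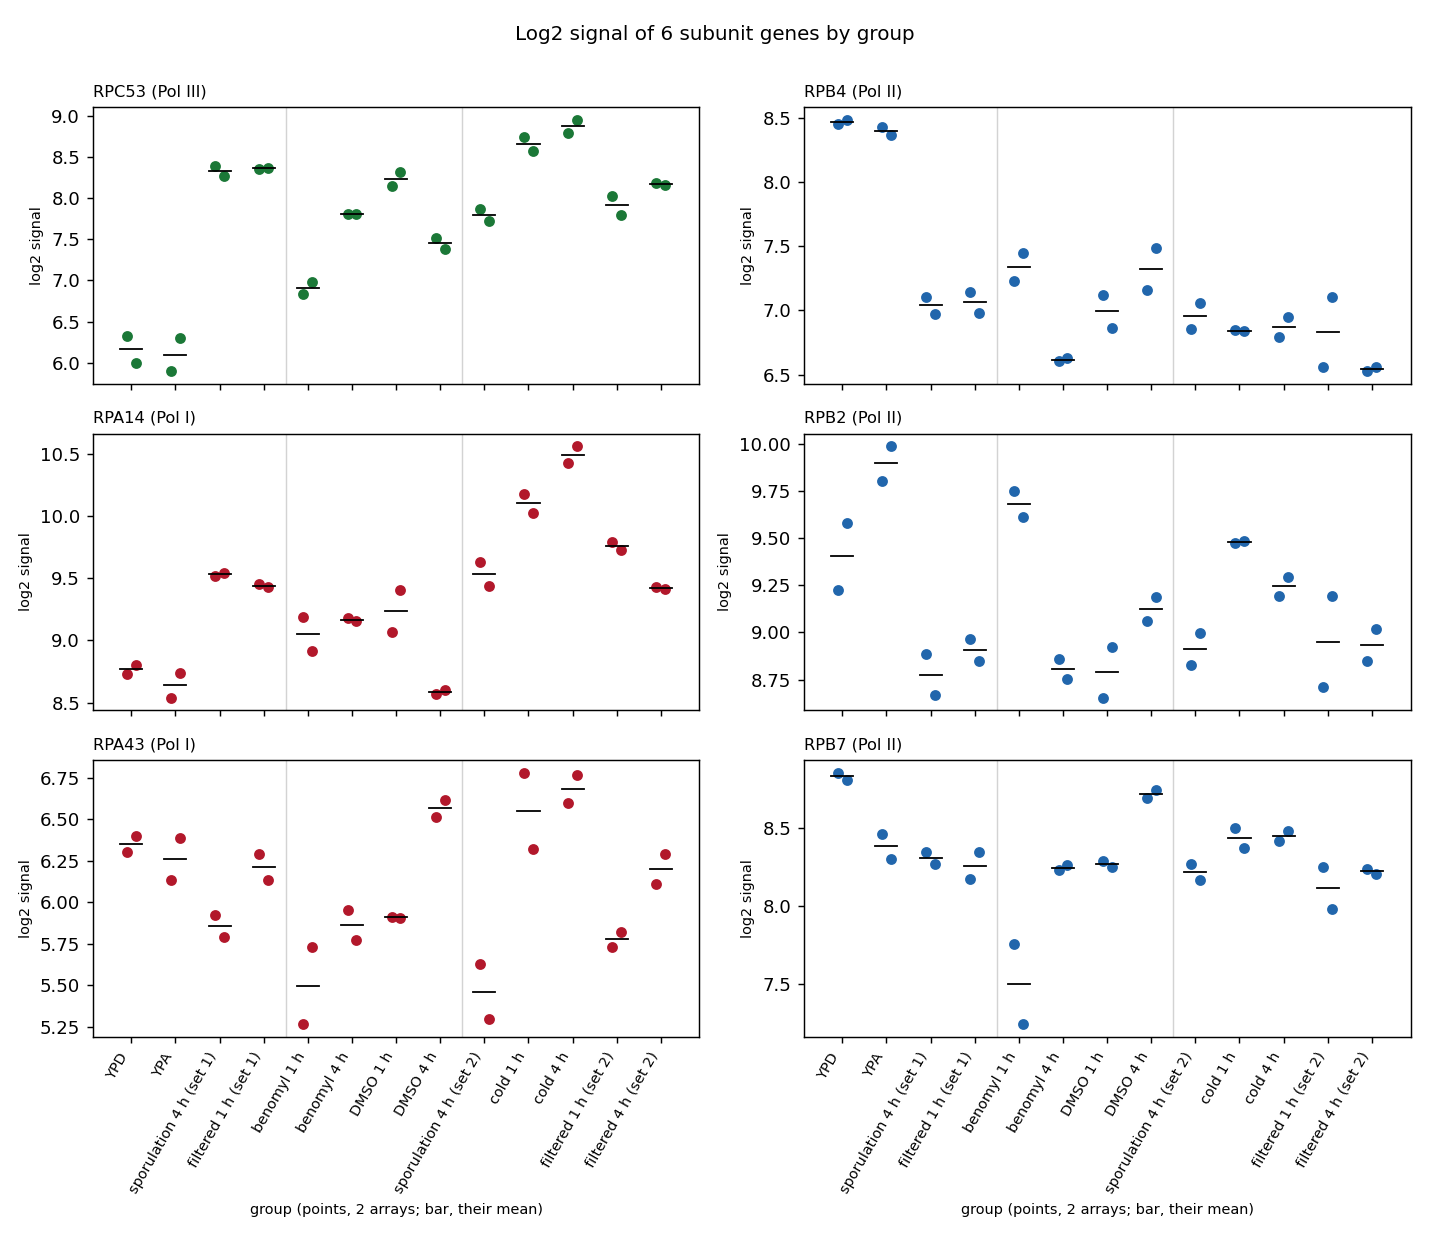
Log2 signal of RPC53, RPA14, RPA43, RPB4, RPB2 and RPB7 by group, with points for arrays and a bar for the mean of 2 arrays, chosen after the values were seen. RPC53 lies between 5.90 and 6.33 in both growth media and at 6.84 or above in every sporulating group, while RPB4 lies above 8 in the growth media.

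The genes for the factors that load each polymerase were read beside the subunits. Of the Pol I initiation factors 7 of 9 were tested. After 4 h of sporulation 6 were higher than in YPA and 1 lower (28.5% and 29.5% of all probe sets), with RRN5 (0.89) and RRN10 (0.86) higher and HMO1 (-0.98 ± 0.13), a protein of active ribosomal DNA, lower. In benomyl at 1 h 3 were higher and 2 lower (25.6% and 26.8% of all), and the median was -0.37. RRN3 (0.57), which links Pol I to its promoter, RRN10 (0.42) and HMO1 (0.42) were the higher ones and RRN6 (-1.01) and RRN5 (-0.41) the lower ones, the last pair named after their values were seen. In cold 3 were called at 1 h and 4 at 4 h, each of them higher (11.7% and 19.4% of all), led at 4 h by HMO1 (1.47 ± 0.13) and RRN3 (1.22 ± 0.16).

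Of 20 general initiation factors of Pol II, 5 were higher and 1 lower in benomyl at 1 h, no more than the 25.6% and 26.8% of all probe sets. The higher ones were led by SSL2 (3.34 ± 0.27), the DNA translocase of the factor TFIIH, and SPT15 (1.84 ± 0.20), the TATA-binding protein that all the enzymes use. Of 9 tested Pol III factors TFC1 alone was called, and it was lower (-0.71). In cold at 1 h 1 of these 9 genes was higher and 1, the Pol III repressor MAF1, was lower (-0.66 ± 0.17). Of all probe sets 11.7% were higher and 8.35% lower. In cold at 4 h 7 of the Pol II factors were higher and 1 lower (19.4% and 16.8% of all), and the 2 Pol III factors called were higher.

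Polymerases are assembled in the cytoplasm with the help of chaperones and small GTPases before they enter the nucleus. Of 8 assembly and import factors, 4 were called in cold at 1 h, each of them higher (11.7% of all probe sets), with GPN3 (1.00), NPA3 (0.97) and RBA50 (0.74) among them, and 5 were higher and 2 lower at 4 h (19.4% and 16.8%). In benomyl at 1 h 4 were higher and 1 lower (25.6% and 26.8% of all), with NPA3 (0.81) and GPN2 (0.56) higher and GPN3 (-0.80) lower. Other genes of ribosome production were measured on the same arrays. Of 63 tested ribosome biogenesis genes, 62 were higher in cold at 1 h (median 1.46, with 11.7% of all probe sets called higher) and 63 at 4 h (1.46, 19.4%), while 37 were lower and 1 higher in benomyl at 1 h (-0.71, 26.8% and 25.6%). Of 75 tested ribosomal protein genes, 6 were called in cold at 1 h, each of them higher (median 0.12), and 7 were higher and 4 lower at 4 h (-0.05), counts under the shares of all probe sets. In benomyl at 1 h 72 were lower and 1 higher (-1.95).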

How the data were processed

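The deposited table holds processed log2 signals of 9335 probe sets on 26 arrays, and how the authors made them is not given in the sources used here; the base of the logarithm was inferred from their range of 2.09 to 15.1, with array medians of 6.64 to 7.00. Per the file headers, the instrument text files of 16 arrays hold another kind of value ("other" unit), fluidics and scanner settings, from which the scan day was read; replicate 1 was scanned on day 1 and replicate 2 on day 2, except YPD. Array data give no read depth, and 2 arrays per group limit the precision.

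Groups were taken from the sample labels. Values were quantile normalized. Of the probe sets, 60 controls were dropped, and so were 1399 with no group mean above 5.44, the 25th percentile of the table; 7876 stayed. Gene names came from the supplied platform annotation: 6504 probe sets had 1 gene, 328 several and 2503 none listed. A limma 3.58.1 model (R 4.3.3) with a mean per group and a variance trend by intensity used the 26 arrays together, leaving 13 residual degrees of freedom. Its calls were tested on simulated data.

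All 31 members are accounted for, and from each other list at most 3 members with the smallest adjusted p in a comparison were named. The exception was benomyl at 1 h, where RRN6 and RRN5 were also named after their values were seen. The members, the lists and the 8 meiosis genes were chosen with earlier results of these data known. The alternatives were 2 other scalings, 2 other filters, no variance trend, array weights, a fit to the compared groups alone, the replicate number or scan day as a term, the mean of a gene's probe sets, another control for benomyl, and each array left out. In the first set, YPD aside, the replicate number marks the scan day read from the file headers and so pairs arrays by day; same-numbered residuals correlated at -0.15 to 0.31 (28 pairs of groups). In the second set it is a number only (-0.29 to 0.39, 10 pairs). Neither was a term of the model.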

Additional observations from a re-analysis of the deposited data

Results flagged for a closer look

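For 16 subunit genes the benomyl effect at 4 h differed from that at 1 h in limma's test of the difference (4 h minus 1 h, log2, each effect against DMSO of the same time). Of all probe sets tested, 24.2% were higher and 21.5% lower in this difference. It includes the change in DMSO between 1 h and 4 h, in which RET1, RPO31, RPC53 and 5 Pol I genes fell. In Pol I the difference was 1.52 for RPA34, 1.46 for RPA135, 1.36 for RPA190, 1.17 for RPA12, 0.98 for RPA49 and 0.76 for RPA14. In Pol III it was 2.04 for RET1, 1.68 for RPC53 and 0.96 for RPO31. RPC19, shared by Pol I and Pol III, gave 1.56. The common genes RPO26, RPB8 and RPB5 gave 1.53, 1.53 and 0.74. The Pol II genes RPB2 (-1.21), RPB4 (-1.05) and RPB9 (-0.67) went the other way. With scan day as a term RPA49 (limma adjusted p 0.0503) and RPB9 (0.084) did not pass this test, while RPC82 (0.70, 0.0109) and RPC10 (0.62, 0.031) did. Of these calls 14 were kept when each array was left out in turn, and the 8 meiosis genes also gave a positive difference, 8 of 8 (1.63 to 2.82).

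For RPA14 the cold effect at 4 h differed from that at 1 h by 0.73. This call was not kept in the values as deposited. Groups had 2 arrays each, so no single array could be tested against the others of its group.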

How the results depend on the processing

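The values as deposited moved class medians. For 4 h of sporulation minus YPA they gave 0.11 in Pol I (turned in sign), -0.72 in Pol II and 0.39 in Pol III. For benomyl at 1 h they gave -0.96 in Pol I and -0.010 in Pol II (turned in sign), and for benomyl at 4 h -0.46 in Pol II. They left 0 calls for the cold effect at 4 h minus 1 h. RPO21 after 4 h of sporulation was -0.082 as deposited and -0.29 with median centring. With filtered cells as the control of benomyl at 1 h, Pol I stood at -1.20 and Pol III at -0.50. Array weights gave 1 call for filtered cells minus sporulation in the first set, 1 for DMSO at 1 h minus filtered cells, 15 for benomyl at 4 h, 9 for benomyl at 4 h minus 1 h and 2 for the second set minus the first. A fit to the compared groups alone gave 1 call for filtered cells minus sporulation in the first set, 6 for benomyl at 1 h, 17 for benomyl at 4 h, 4 for benomyl at 4 h minus 1 h, 11 for cold at 1 h, 5 for cold at 4 h minus 1 h, 0 for the second set minus the first and 23 for benomyl minus cold at 4 h. The cause of these changes was not tested. With the replicate number as a block the counts were 16 for benomyl at 1 h, 19 for cold at 1 h and 25 for cold at 4 h, as without it, and 8 for the second set minus the first in place of 9. It changed 3 calls of single genes, losing RPC34 and gaining RPC11 in cold at 1 h and losing RPC40 in the second set minus the first. Scan day could not be a term for YPA minus YPD.

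Leaving out single arrays gave 5 to 7 calls for YPA minus YPD, 12 to 14 for sporulation minus YPA, 0 to 1 for filtered cells minus sporulation in each set, 0 to 0 for DMSO at 1 h minus filtered cells, 11 to 15 for DMSO at 4 h minus 1 h, 15 to 19 for benomyl at 1 h, 4 to 8 at 4 h, 11 to 18 for benomyl at 4 h minus 1 h and 14 to 20 for the difference of its effects. It gave 12 to 22 for cold at 1 h, 18 to 21 at 4 h, 0 to 1 for cold at 4 h minus 1 h, 0 to 4 for the difference of its effects, 0 to 2 for filtered cells at 4 h minus 1 h, 1 to 13 for the second set minus the first, 19 to 23 for benomyl minus cold at 1 h and 10 to 14 at 4 h. The lone array of a group was then assumed to vary like the other groups. The Pol I medians ran from -0.12 to -0.01 for sporulation, -1.25 to -0.66 for benomyl at 1 h, 0.07 to 0.31 at 4 h and 0.88 to 1.00 for cold at 1 h. The Pol II medians ran from -0.95 to -0.87, -0.29 (without benomyl replicate 1; -0.07 without DMSO replicate 1) to 0.24 (without benomyl replicate 2), -0.38 to -0.25 and 0.26 to 0.39. The Pol III medians ran from 0.18 to 0.32, -0.35 to -0.23, 0.25 to 0.39 and 0.43 to 0.73. Over single genes and settings, 7462 values kept their direction and side of the threshold, 314 lost the call, 161 gained it and 2 turned.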
